A study of Mus musculus with 8 samples.

Results

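The 6 genes described here are the members of the TOX family and of the calcium-regulated NFAT factors that were read by symbol from the gene list of the matrix, namely Tox, Tox2, Tox4, Nfatc1, Nfatc2 and Nfatc3, 6 of 27998 genes. Their RNA was counted in CD45+ cells sorted from B16-OVA tumors, a mouse melanoma that expresses ovalbumin, and enriched for CD8+ tumor-infiltrating lymphocytes (TILs). All tumors grew in C57BL/6 mice, injected at 7 weeks of age and not lymphodepleted. Treated mice received adoptive cell transfer (ACT) of OT1 cells, CD8+ T cells with a transgenic receptor for ovalbumin, given in 2 infusions. The OT1 cells were untransduced (days 5 and 12 after transfer), transduced with PD1d/IL-2v (day 12), transduced with PD1d/IL-33 (day 12), or given as PD1d/IL-2v/IL-33, a 1:1 mix of PD1d/IL-2v and PD1d/IL-33 cells named combination ACT in the text (days 5, 12 and 26), and the eighth library came from non-treated tumors at day 5. PD1d is the PD-1 ectodomain fused to a human IgG4 Fc, IL-2v is an IL-2 variant that does not bind IL-2Rα, and IL-33 is a cytokine of the IL-1 family. Each condition and day is 1 library, made from the pooled tumors of 5 mice per condition where the study describes it, so no comparison between conditions has a replicate. Transferred cells and the CD8+ T cells of the host could not be separated here, and whether transcripts of the PD1d vector were counted as Pdcd1 was not tested.

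TOX proteins bind DNA through an HMG box. In CD8+ T cells that meet antigen for a long time, TOX is known for driving the exhausted program and for keeping those cells alive, and TOX2 acts with it. NFAT proteins rest in the cytoplasm, phosphorylated by kinases such as GSK3 and DYRK. Receptor signalling releases calcium through IP3 receptors, STIM and ORAI proteins refill it, and calcineurin then strips the phosphates so that NFAT enters the nucleus. NFAT acting without AP-1 induces Tox and Pdcd1, and NFATC1 (NFAT2), NFATC2 (NFAT1) and NFATC3 (NFAT4) are the forms of lymphocytes. TOX4 is expressed in most cell types.

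Nfatc2 and Nfatc3 are shown by their promoters because both passed the edgeR test between the Pdcd1 populations and between CD4 and CD8 T cells. The window of each is the 250 bases before its first annotated start in RefSeq (GRCm38.p6), 5′ to 3′ on the gene's own strand, at chr2:168601658-168601907 (minus strand) for Nfatc2 and at chr8:106058568-106058817 (plus strand) for Nfatc3. Capitals mark GGAAA, the core that NFAT binds, or its reverse complement TTTCC.
Nfatc2: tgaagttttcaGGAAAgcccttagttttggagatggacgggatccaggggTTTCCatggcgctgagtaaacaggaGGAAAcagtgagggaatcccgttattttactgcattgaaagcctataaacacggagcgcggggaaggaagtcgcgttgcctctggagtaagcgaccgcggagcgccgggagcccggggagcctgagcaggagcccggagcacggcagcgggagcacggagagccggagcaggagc
Nfatc3: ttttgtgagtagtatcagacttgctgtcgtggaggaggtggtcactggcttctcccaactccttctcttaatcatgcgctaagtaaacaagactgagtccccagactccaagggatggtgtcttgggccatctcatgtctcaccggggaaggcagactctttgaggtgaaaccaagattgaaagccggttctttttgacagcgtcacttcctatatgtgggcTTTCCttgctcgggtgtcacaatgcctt
The Nfatc2 window held 3 such matches, 239, 200 and 175 bases before the start, and the Nfatc3 window held 1 at 28 bases before it. Each gene has 2 annotated starts, and the window of the other start held 1 match for Nfatc2 and 0 for Nfatc3. Of 32851 RefSeq promoter windows of the same length, 55.6% held at least 1 match on either strand.

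On the same build, Tox lies at chr4:6686353-6991557, Tox2 at chr2:163203058-163324172, Tox4 at chr14:52279146-52295509, Nfatc1 at chr18:80606205-80713071, Nfatc2 at chr2:168476410-168601657 and Nfatc3 at chr8:106058818-106130537. In the 12828 cells that passed the filters, the matrix held 5712 UMIs (unique molecular identifiers, 1 per captured transcript) of Tox, 473 of Tox2, 4755 of Tox4, 8237 of Nfatc1, 2245 of Nfatc2 and 6200 of Nfatc3. Levels are given below as CPM, the UMIs of a gene per 1000000 UMIs of a cell population. Each transcript is counted once, at its 5′ end, so no scaling by transcript length was applied.

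Cells were assigned to populations by raw UMIs of marker genes. CD8 T cells (Cd3 and Cd8 genes, no Cd4) numbered 5094, of which 2511 had at least 1 Pdcd1 UMI (Pdcd1+) and 2583 had none (Pdcd1-). Among CD4 T cells, 411 had a Foxp3 UMI and 794 had none, and there were 2601 NK and 1448 myeloid cells. The libraries held 1387032 to 24917112 UMIs and 202 to 3655 passing cells, and the untransduced day 12 library gave 42 and the non-treated library 77 CD8 T cells. The populations differ on the markers that chose them, so these levels are no test of purity. Summed CPM of the 8 myeloid markers was 18.2 to 48.7 in CD8 T cells of the 8 libraries against 5799 to 16440 in myeloid cells. Summed CPM of the 4 NK markers was 60.3 to 251.5 in CD8 T cells against 1241 to 3013 in NK cells. Of the CD8 T cells, 27.0% held a UMI of an NK marker and 22.9% a UMI of a myeloid marker. Of the 15700 barcodes, 143 barcode sequences occurred in more than 1 library, with 0 to 17 shared by a pair.

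Tox was higher in Pdcd1+ than in Pdcd1- CD8 T cells of every library. In Pdcd1+ cells its level was 147 CPM (day 5) and 154 CPM (day 12) in untransduced ACT, 126 in PD1d/IL-2v ACT, 214 in PD1d/IL-33 ACT and 243 in non-treated tumors. After combination ACT it was 68.5 CPM at day 5, 30.7 at day 12 and 181 at day 26. The Pdcd1- cells of the same libraries, in the same order, had 47.5, 36.4, 23.2, 118 and 90.2 CPM and then 30.9, 20.04 and 67.2 CPM. The 2 populations overlapped across libraries, because Pdcd1+ cells of day-12 combination ACT were below the Pdcd1- cells of 6 other libraries, but within each library the order was the same. In edgeR's quasi-likelihood test on the UMIs summed per library and population, with the library as a block, Tox rose by 1.36 on the log2 scale in Pdcd1+ cells (SE 0.15, adjusted p = 8.49e-06, n = 8 libraries). The difference within a library, after adding 10 CPM, ran from 0.44 in day-12 combination ACT to 2.03 in PD1d/IL-2v ACT.

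**Figure D1:**
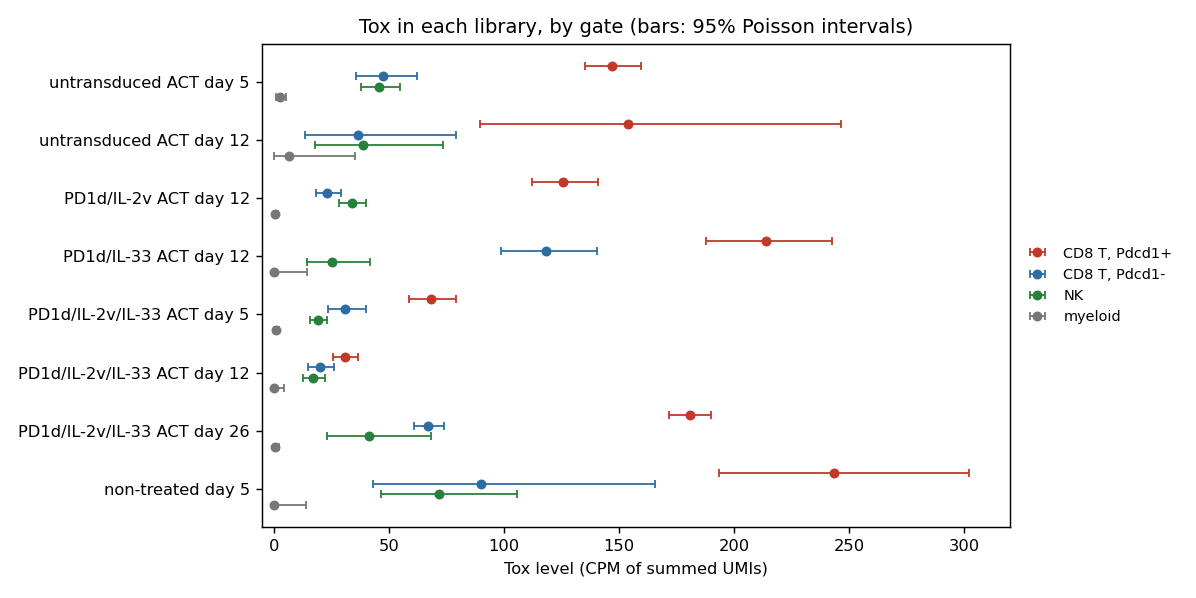
Tox level (CPM, with exact 95% Poisson intervals) in Pdcd1+ and Pdcd1- CD8 T cells, NK cells and myeloid cells of each of the 8 libraries. Pdcd1+ cells are above Pdcd1- cells of the same library throughout, and day-12 combination ACT has the lowest Tox in both CD8 populations and in NK cells.

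The share of cells with a Tox UMI gave the same order. With each cell thinned to 2000 UMIs, 22.0% of Pdcd1+ and 9.99% of Pdcd1- cells had 1, and unthinned the shares were 48.7% and 21.3%. Myeloid cells, which should lack Tox, gave 0.0691% thinned. They were chosen for having no Cd3 UMI, which also removes cells that took up T-cell RNA. This share can therefore understate the background from free RNA in the other populations. Cells with a Pdcd1 UMI held more UMIs in all, with a median of 7073 against 5433, and carried more Mki67 and Top2a, genes of dividing cells, at a summed 219 CPM against 95.6. Without cells that held a UMI of either gene, and with thinned cells, the Tox call was kept.

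Of the 5 members that could be tested with edgeR between the Pdcd1 populations, 1 rose and 2 fell, where 23.0% of 8758 genes were called. Nfatc2 fell by 0.67 on the log2 scale in Pdcd1+ cells (edgeR, SE 0.13, adjusted p = 0.00098), and was lower in 8 of 8 libraries. Its level was 16.7 against 21.5 CPM in untransduced ACT at day 5, 9.05 against 36.4 at day 12, 12.3 against 28.6 in PD1d/IL-2v ACT, 30.9 against 38.7 in PD1d/IL-33 ACT and 5.93 against 18.0 in non-treated tumors. After combination ACT it was 20.5 against 34.7 CPM at day 5, 23.7 against 34.8 at day 12 and 29.3 against 41.7 at day 26. The point values of Tox and Nfatc2 thus differed in opposite directions in each of the 8 libraries. For Nfatc2, non-treated tumors gave only 4 UMIs and untransduced ACT at day 12 only 7, over both populations together. The counting interval of the Nfatc2 difference lay below 0 in 4 of them and held 0 in the rest. The Nfatc2 call was lost when cells were thinned to 2000 UMIs (-0.49, adjusted p = 0.165 with edgeR). In that setting Pdcd1+ and Pdcd1- were assigned again from the thinned UMIs, so depth and the make-up of the populations changed together.

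Nfatc3 fell by 0.31 (edgeR, SE 0.09, adjusted p = 0.0165) in Pdcd1+ cells and was lower in 6 of 8 libraries. Its levels in Pdcd1+ cells ran from 45.3 to 93.2 CPM and in Pdcd1- cells from 42.4 to 101 CPM, so the populations overlapped. The Nfatc3 call did not hold without PD1d/IL-2v ACT (-0.27, adjusted p = 0.0648 with edgeR), without day-26 combination ACT (-0.29, adjusted p = 0.0655 with edgeR) or with thinned cells (-0.03, adjusted p = 0.961 with edgeR).

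Nfatc1, the NFAT form that induces its own promoter in activated lymphocytes, did not pass the test between the Pdcd1 populations (0.04, adjusted p = 0.857 with edgeR). It was higher in Pdcd1+ cells of 6 libraries, among them PD1d/IL-33 ACT (107 against 75.6 CPM) and untransduced ACT at day 12 (90.5 against 30.3 CPM, from 10 and 5 UMIs). It was lower in the other 2, day-5 combination ACT (85.1 against 97.6 CPM) and at day 12 (48.3 against 81.3 CPM). Pdcd1+ cells of that day-12 combination library had the lowest Nfatc1 of the Pdcd1+ cells, and its interval did not overlap that of the next library, day-5 combination ACT. Only neighbouring libraries were compared in this way, and untransduced ACT at day 12 rested on 10 UMIs. Tox4 was lower by 0.23 in Pdcd1+ cells without passing the test (adjusted p = 0.0655 with edgeR), although it was lower in 8 of 8 libraries, by 0.10 to 0.32. An exact sign-flip permutation test over the 8 libraries gave p = 0.00781 for Tox, Nfatc2 and Tox4 alike (2-sided, unadjusted), the smallest that 8 libraries allow. For Nfatc3, called by edgeR, the exact test gave p = 0.0703.

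**Figure D2:**
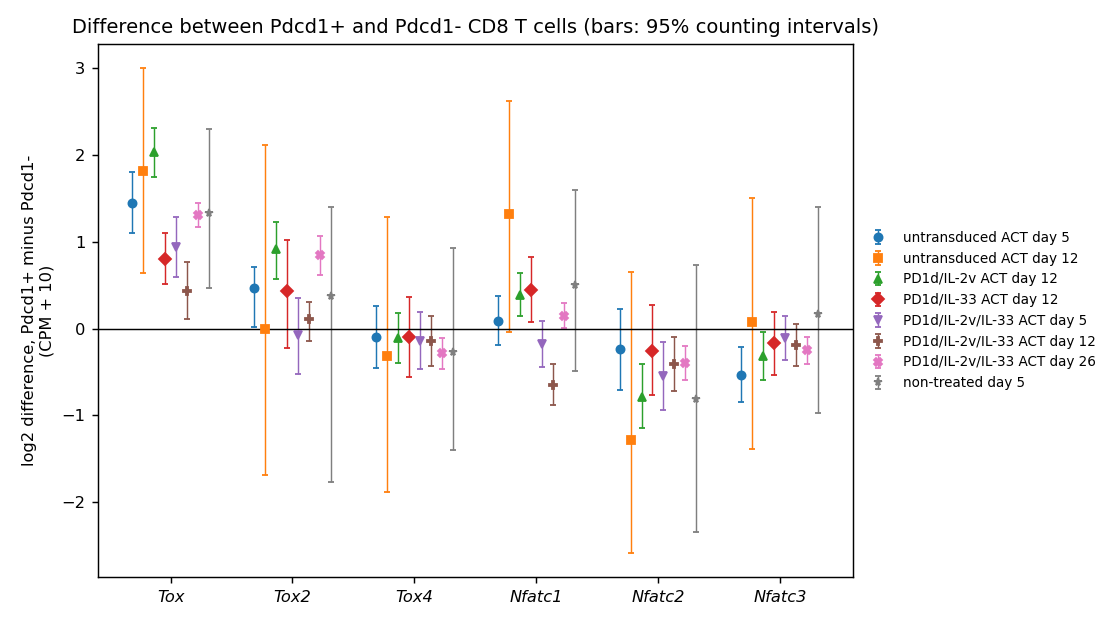
Difference in log2(CPM + 10) between Pdcd1+ and Pdcd1- CD8 T cells for the 6 genes, 1 point per library, with bars for 95% counting intervals. All 8 points are above 0 for Tox and below 0 for Nfatc2 and Tox4, and the points of Nfatc1 and Nfatc3 lie on both sides.

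Of 19 testable genes of calcium entry, calcineurin, its inhibitors and the NFAT kinases, 8 passed the test between the Pdcd1 populations, 2 higher and 6 lower in Pdcd1+ cells, where 23.0% of all genes were called. Of 7 genes of calcium entry, 2 rose and 2 fell, with a median of -0.26 on the log2 scale beside -0.01 over all genes tested. Stim1, the calcium sensor of the endoplasmic reticulum, fell by 0.56, Orai1, the channel it opens, rose by 0.48, and Itpr3, an IP3 receptor, fell by 0.45. Of 4 calcineurin subunits only Ppp3cc, a catalytic one, passed, with -0.33 (median -0.14). Of 3 testable inhibitors of calcineurin among 6 listed, Tbc1d10c (carabin) fell by 0.36 (median -0.13). Of 5 NFAT kinases, Dyrk2 fell by 0.91 and Dyrk1a by 0.34 (median -0.15). The relatives Nfat5 and Nfatc2ip did not pass, and Tox3 and Nfatc4 had too few UMIs to be tested.

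Pdcd1 itself was set by the split and is no result. Of the 7 other inhibitory receptors, 6 rose in Pdcd1+ cells and 0 fell, with a median of 1.07, led by Havcr2 (1.96), Lag3 (1.77) and Ctla4 (1.27). Cd160 did not pass (-0.09). Of 14 factors of effector and exhausted T cells, 8 rose and 3 fell, where 12.3% of all genes tested rose and 10.7% fell. Nr4a2, a nuclear receptor induced by antigen, rose by 1.22, while Id3 fell by 1.36 and Tcf7, which encodes TCF1, fell by 1.14.

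NK cells had less Tox and more Nfatc1 than CD8 T cells. Of the 5 members testable with edgeR, 1 rose and 1 fell, where 40.1% of 9205 genes were called. Tox in NK cells was 45.8 CPM (day 5) and 38.7 CPM (day 12) with untransduced cells, 33.8 CPM in PD1d/IL-2v ACT, 25.4 CPM in PD1d/IL-33 ACT, 19.1, 16.8 and 41.3 CPM in combination ACT from day 5 to day 26, and 71.7 CPM without treatment. In CD8 T cells of these libraries, in this order, it was 125, 83.5, 67.6, 167, 52.8, 26.6, 133 and 205 CPM. NK cells were lower in all 8, and Tox fell by 1.45 (edgeR, SE 0.15, adjusted p = 6.37e-07). The smallest difference was again in day-12 combination ACT (-0.45 after adding 10 CPM).

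Nfatc1 in NK cells was 162, 129, 130, 173, 186, 145, 135 and 175 CPM in that order of libraries, against 106, 54.5, 76.9, 91.6, 90.3, 60.9, 89.1 and 98.2 CPM in CD8 T cells. The lowest NK value was above the highest CD8 value, and Nfatc1 rose by 0.83 (edgeR, SE 0.10, adjusted p = 2.97e-06). With thinned cells, 27.7% of NK and 15.1% of CD8 T cells had an Nfatc1 UMI. Nfatc2 in NK cells (-0.32, adjusted p = 0.111), Nfatc3 (0.20, adjusted p = 0.0972) and Tox4 (0.03, adjusted p = 0.897) did not pass in edgeR. Without the non-treated library Nfatc2 did pass (-0.38, adjusted p = 0.0283 with edgeR).

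Genes of the calcium-NFAT pathway differed in both directions between NK and CD8 T cells. Of 19 testable genes of calcium entry, calcineurin, its inhibitors and the NFAT kinases, 11 passed, 5 higher and 6 lower. Over all genes tested 40.1% passed, 19.3% higher and 20.9% lower. In calcium entry 2 of 7 genes were higher in NK cells and 4 lower, with a median of -0.60 beside -0.00 over all genes. Plcg1, the phospholipase downstream of the T-cell receptor, fell by 5.70, Itpr1 by 1.25 and Orai1 by 0.70. Of the calcineurin subunits, Ppp3cc rose by 0.75 and Ppp3ca by 0.59 (2 of 4 higher, median 0.30). Of 3 testable inhibitors 2 fell (Rcan3 by 1.40, Cabin1 by 0.34), of 5 kinases Dyrk2 rose by 0.68, and of 2 relatives Nfat5 fell by 0.38. Of 8 inhibitory receptors 1 rose (Cd244 by 2.92) and 5 fell, Pdcd1 by 5.44 and Havcr2 by 4.51 among them, and of 13 factors 5 rose and 5 fell, among them Eomes (1.96), Id3 (-1.73) and Ikzf2 (-1.72).

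Myeloid cells had almost no Tox, with 12 UMIs in 1448 cells, or 0.903 CPM (95% interval 0.467 to 1.58), and 0 UMIs in PD1d/IL-33 ACT, day-12 combination ACT and non-treated tumors. A count of 0 there allows up to 11.7, 3.44 and 11.3 CPM. The call against CD8 T cells was passed (edgeR, adjusted p = 1.22e-11), and no fold is given because 3 libraries were at 0. Nfatc1 fell by 1.55, Nfatc2 by 1.66 and Nfatc3 by 1.49 in myeloid cells, each lower in 8 of 8 libraries, while Tox4 rose by 0.30 (edgeR, adjusted p = 0.0347) and was higher in 7 of 8. So 1 of 5 members rose and 4 fell, where 69.6% of 9138 genes were called and the median gene was at -0.21. Tox4 levels of 41.5 to 82.7 CPM in myeloid and 32.7 to 53.6 CPM in CD8 T cells overlapped, and the Tox4 call was lost without day-12 combination ACT (0.27, adjusted p = 0.0792 with edgeR) and with library size alone (0.26, adjusted p = 0.0991 with edgeR). The exact sign-flip test gave an unadjusted p = 0.125 for Tox4.

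**Figure D3:**
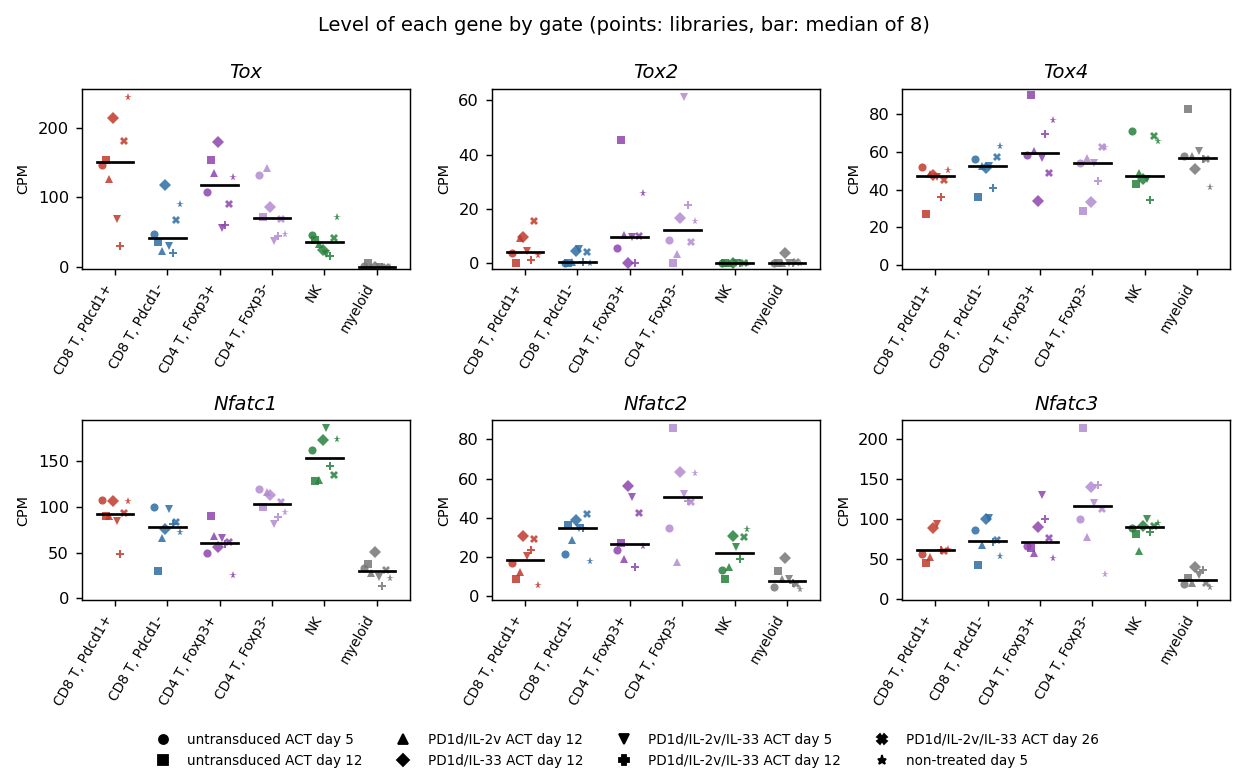
Level of each of the 6 genes (CPM) by cell population, 1 point per library, with a bar at the median. Tox is near 0 in myeloid cells, Nfatc1 is highest in NK cells, and Tox4 lies in the same range in all populations.

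Of 20 testable genes of calcium entry, calcineurin, its inhibitors and the NFAT kinases, 12 passed between myeloid and CD8 T cells, 3 higher and 9 lower. Over all genes tested 69.6% passed, 28.4% higher and 41.2% lower. In pathway lists the myeloid cells were lower for 4 of 7 calcium entry genes, with Plcg1 at -4.93, Itpr3 at -1.71 and Stim1 at -1.14. They were split for calcineurin, with Ppp3cc at -3.93, Ppp3cb at -0.63 and Ppp3ca at 0.56 (2 higher and 2 lower of 4). Of 4 testable inhibitors, Rcan1 rose by 2.54, and Tbc1d10c fell by 4.02 and Cabin1 by 0.34. Of 5 kinases Dyrk2 fell by 0.78, and both relatives fell (Nfatc2ip by 1.81 and Nfat5 by 0.49). Of 8 inhibitory receptors 3 rose and 5 fell, among them Pdcd1 (-7.47), Cd160 (-7.12) and Ctla4 (-6.30). Of 14 factors 4 rose and 8 fell, among them Tcf7 (-5.73), Ikzf2 (-4.63) and Tbx21 (-4.60).

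CD4 T cells without a Foxp3 UMI had more Nfatc2 and Nfatc3 than CD8 T cells. Nfatc2 rose by 0.69 (edgeR, SE 0.17, adjusted p = 0.00647) and was higher in 7 of 8 libraries, at 17.7 to 85.6 CPM against 8.93 to 34.7 CPM. Nfatc3 rose by 0.59 (edgeR, SE 0.14, adjusted p = 0.00543) and was higher in 7 of 8, at 31.5 to 214 CPM against 43.6 to 96.7 CPM. Tox (-0.36, adjusted p = 0.256), Nfatc1 (0.17, adjusted p = 0.294) and Tox4 (0.02, adjusted p = 0.953) did not pass in edgeR. With thinned cells neither call held (Nfatc2 0.28, adjusted p = 0.523, and Nfatc3 0.23, adjusted p = 0.3497, with edgeR). The exact sign-flip test gave an unadjusted p = 0.0156 for Nfatc2 and 0.0625 for Nfatc3. So 2 of 5 members rose and 0 fell, where 23.5% of 6566 genes were called, 741 higher and 803 lower. Scaling by library size alone turned that split to 1124 higher and 475 lower. The CPM levels, the counts of libraries and the exact test given here also scale by library size alone. Of 7 calcium entry genes 3 rose (Itpr1 by 0.78, Orai1 by 0.62 and Stim1 by 0.48) and 0 fell, with a median of 0.37 beside 0.01 over all genes. Of 4 testable kinases Gsk3b rose by 0.39, of 7 inhibitory receptors 1 rose and 3 fell (Cd160 by 4.12, Havcr2 by 1.75 and Lag3 by 1.28), of 14 factors 5 rose and 2 fell (Eomes at -3.88, Maf at 2.88 and Nr4a2 at -1.39), and no calcineurin subunit, inhibitor or relative passed.

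Within CD4 T cells, the point value of Nfatc1 was lower in Foxp3+ cells in all 8 libraries. The counting interval of the difference lay below 0 in 3 of them and held 0 in the rest. The levels were 49.4, 90.5, 68.8, 56.2, 66.4, 59.9, 61.5 and 25.7 CPM in Foxp3+ cells and 120, 99.9, 117, 114, 81.2, 89.6, 106 and 94.4 CPM in cells without Foxp3, in the order of libraries used above. Only the 90.5 CPM of untransduced ACT at day 12, from 16 cells, came within the range of the cells without Foxp3. Foxp3+ cells numbered only 10 in non-treated tumors and 15 in PD1d/IL-33 ACT. Over all libraries Foxp3+ cells held a median of 5812 UMIs against 4149 without Foxp3. Their summed Mki67 and Top2a was 255.8 against 111.7 CPM, and this comparison was not run without dividing cells. Nfatc1 fell by 0.82 (edgeR, SE 0.15, adjusted p = 0.000556) and Nfatc3 by 0.52 (edgeR, SE 0.16, adjusted p = 0.0205), 2 of 5 members, where 22.2% of 3952 genes were called. Nfatc3 was lower in 6 of 8 libraries, and its call was lost without day-26 combination ACT (-0.51, adjusted p = 0.0749 with edgeR). With thinned cells, and Foxp3 read again from the thinned UMIs, Nfatc1 was at -0.29 in 7 libraries (adjusted p = 0.507 with edgeR). The exact sign-flip test gave an unadjusted p = 0.00781 for Nfatc1 and 0.102 for Nfatc3. Tox was at 0.29 (adjusted p = 0.258) and higher in 6 of 8, Nfatc2 at -0.46 (adjusted p = 0.141) and Tox4 at 0.06 (adjusted p = 0.988), none past the test in edgeR.

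FOXP3 binds DNA together with NFAT in regulatory T cells. Of 13 testable genes of calcium entry, calcineurin, its inhibitors and the NFAT kinases, 2 were called, where 22.2% of all genes were. Of 4 testable genes of calcium entry Orai1 fell by 0.54, of 4 calcineurin subunits Ppp3cc fell by 0.71, and no inhibitor, kinase or relative passed. Of 6 inhibitory receptors 5 rose, among them Ctla4 (2.25), Havcr2 (2.03) and Entpd1 (1.82), and 1 fell. Of 11 factors 3 rose and 4 fell, with Tcf7 at -4.30, Ikzf2 at 3.06 and Bhlhe40 at -1.70.

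Tox2 was rare and had too few UMIs to pass the count filter of edgeR in any of the 5 comparisons of populations. The exact sign-flip test, after adding 10 CPM, gave an unadjusted p = 0.031 between the Pdcd1 and 0.695 between the Foxp3 populations. Against CD8 T cells that test gave 0.0625 for CD4 T cells without Foxp3 and 0.0156 each for NK and myeloid cells. In CD8 T cells it gave 247 UMIs, of which 163 were in day-26 combination ACT (10.9 CPM), and the other 7 libraries were at 0 to 7.22 CPM. Over all libraries its level was 8.68 CPM (95% interval 7.53 to 9.96) in Pdcd1+ and 2.67 CPM (1.94 to 3.58) in Pdcd1- CD8 T cells, and Pdcd1+ cells were higher in 6 libraries, lower in 1 and at 0 in both populations in the other. NK cells held 0 Tox2 UMIs in 2601 cells, which allows up to 0.184 CPM, and myeloid cells held 2. In this respect Tox2 differed from Tox, which NK cells had in every library.

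Tox2 in CD4 T cells without Foxp3 was 23.4 CPM over all libraries (95% interval 18.9 to 28.7), but 61 of its 93 UMIs came from day-5 combination ACT. That library had 61.2 CPM, the next highest was day-12 combination ACT with 21.4 CPM, and the 7 libraries without day-5 combination ACT had 10.7 CPM together (7.35 to 15.2, from 32 UMIs). The same cells had the highest summed level of Gata3 and Il1rl1, both markers of type 2 lymphoid cells and the latter the IL-33 receptor, with 1423 CPM where the other libraries ran down to 110 CPM, and neither gene was used to choose these cells. Their part in the Tox2 level was not tested. Foxp3+ cells had 10.0 CPM of Tox2 from 31 UMIs (95% interval 6.80 to 14.2), and were above the cells without Foxp3 in 4 of 8 libraries.

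Between conditions, day-12 combination ACT had the lowest Tox in CD8 T cells and non-treated tumors the highest, 7.71-fold apart. In the order of the 8 levels, neighbouring libraries had 95% intervals that did not overlap at only 3 steps, between PD1d/IL-33 ACT and day-26 combination ACT, between PD1d/IL-2v ACT and day-5 combination ACT, and between the latter and its day 12. Among Pdcd1+ cells the intervals of the 6 highest libraries overlapped from each to the next, and combination ACT at days 5 and 12 lay below them and apart from each other. Intervals here cover counting error only, since each condition is 1 library of pooled mice.

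Combination ACT was compared with untransduced ACT at matched days. The CD8 T cells mix transferred and host cells, in shares that may differ between conditions and days and were not measured here. At day 5 Tox in CD8 T cells was 52.8 against 125 CPM, a log2 ratio of -1.10 (counting interval -1.29 to -0.91, after adding 10 CPM). It was the only one of 5 members with at least 50 UMIs past 2-fold, where 3.10% of 8749 genes were. At day 12 it was 26.6 against 83.5 CPM, from 184 and 23 UMIs, a ratio of -1.35 (-1.91 to -0.76), and again the only one of 5 members past 2-fold, where 7.73% of 7816 genes were. These day 12 libraries carried the same run identifier, while those of day 5 had 1 each, so run identifier and condition cannot be told apart at day 5. Over 9 alternatives these ratios lay between -1.22 and -0.79 at day 5 and between -2.01 and -0.82 at day 12. The ratio was short of 2-fold in 5 of the 9 at day 5, namely with TMM factors (-0.99), the cell filter of the later experiment of the study, which drops cells of over 12000 UMIs (-0.79), thinned cells (-0.98), Pdcd1+ cells alone (-0.9998) and without cycling cells (-0.96). At day 12 it was short of 2-fold in 2 of the 9, with that cell filter (-0.82) and without Gzmc cells (-0.998). The other members were at -0.21 to 0.55 at day 5 and at 0.10 to 0.49 at day 12. Nfatc3, at 96.7 against 63.0 CPM on day 5, had the highest of these ratios (0.55, interval 0.36 to 0.74).

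Against either single engineering at day 12, Tox was lower again, in CD8 T cells whose shares of transferred and host cells were not measured. Against PD1d/IL-2v ACT it was 26.6 against 67.6 CPM (-1.08, interval -1.28 to -0.88), past 2-fold like 2.09% of 9078 genes. Against PD1d/IL-33 ACT it was 26.6 against 167 CPM (-2.27, interval -2.48 to -2.06), where 1.69% of 8405 genes were past 2-fold and 0 of them had a lower ratio than Tox. Under the cell filter of the later experiment these ratios were -0.34 and -1.84, so the former was no longer past 2-fold. No other member with at least 50 UMIs passed 2-fold in CD8 T cells. Nfatc1 was at -0.29 and -0.52, Tox4 at -0.34 and -0.32, Nfatc2 at 0.27 and -0.24 and Nfatc3 at 0.10 and -0.47 in these comparisons. In Pdcd1+ cells alone Nfatc1 was 48.3 against 107 CPM in the latter comparison (-1.003, interval -1.29 to -0.71). Both single-engineering libraries shared a run identifier that combination ACT did not have, so run identifier and condition cannot be told apart in these comparisons.

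Over time in combination ACT, Tox in CD8 T cells was 52.8 CPM at day 5, 26.6 at day 12 and 133 at day 26. From day 5 to day 12 its ratio was -0.78 (interval -0.999 to -0.56), short of 2-fold like all members, where 0.653% of 8879 genes were past it. Nfatc1 and Nfatc3 were each at -0.50 in that step, Tox4 at -0.31 and Nfatc2 at 0.06. From day 12 to day 26 the ratio of Tox was 1.96 (interval 1.80 to 2.13), past 2-fold like 3.16% of 9892 genes, and 6 genes had a higher ratio. Tox2 was at 0.94 (10.9 against 0.868 CPM), Nfatc1 at 0.48, Tox4 at 0.33, Nfatc2 at 0.23 and Nfatc3 at 0.01, beside a median of 0.12 over all genes. Tox2, from 163 against 6 UMIs, was more than 2-fold higher before 10 CPM was added and short of 2-fold after. The 3 days had 3 run identifiers, so run identifier and day cannot be told apart. The shares of transferred and host cells among these CD8 T cells were not measured, so a change of Tox within either was not tested. Cells with a Gzmc UMI were 8.66% of Pdcd1+ cells at day 5, 35.3% at day 12 and 1.05% at day 26. Ratios without such cells are given below. Untransduced ACT against non-treated tumors at day 5, where only the former received OT1 cells, gave 125 against 205 CPM of Tox (-0.68, interval -0.98 to -0.36). The non-treated value came from 77 CD8 T cells. These libraries also had different run identifiers, so run identifier and treatment cannot be told apart in this comparison. None of 5 members was past 2-fold there, where 2.02% of 7620 genes were.

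**Figure D4:**
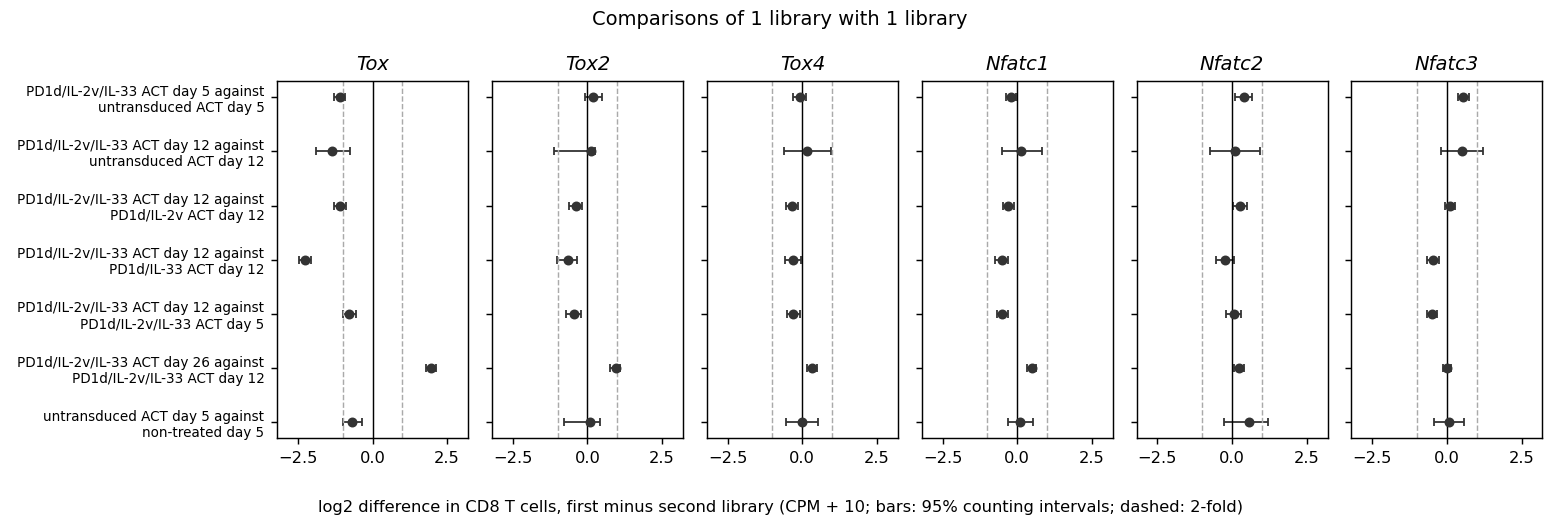
Log2 ratio of CPM + 10 in CD8 T cells for the 6 genes in the 7 comparisons of 1 library with another, with counting intervals and lines at 2-fold. Tox is past 2-fold in 5 of the 7 comparisons, and no other of the 6 genes is in any on this scale. Tox2 at day 26 against day 12 is at 0.94 with 10 CPM added, from 10.9 against 0.868 CPM.

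Of the 7 comparisons, 5 use the same day-12 combination library, so they are not independent of one another. Over all genes with at least 50 UMIs, the share past 2-fold ran from 0.653% (combination ACT, day 12 against day 5) to 7.73% (combination against untransduced ACT at day 12). It was 3.10% for combination against untransduced ACT at day 5. Gsk3a, an NFAT kinase, was higher in combination than in untransduced ACT at day 5 (1.44) and day 12 (1.29), and Tbc1d10c was higher at day 26 than at day 12 (1.19), while no gene of calcium entry, calcineurin or the relatives was past 2-fold in any of the 7. Among inhibitory receptors, Pdcd1 (-1.85), Lag3 (-1.17) and Tigit (-1.08) were lower in combination than in untransduced ACT at day 5 (3 of 8 past 2-fold), and none of 8 was past 2-fold at day 12. Tigit was also lower against PD1d/IL-33 ACT (-1.01) and higher at day 26 than at day 12 (1.30), Cd160 was lower against PD1d/IL-2v ACT (-1.78), and no other receptor passed 2-fold in these comparisons.

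Of the 14 effector and exhaustion factors, 2 were past 2-fold in combination against untransduced ACT at day 5, Maf (1.04) and Eomes (1.01). At day 12, with 13 of them measured, Eomes (1.27) and Irf4 (1.01) were higher and Tcf7 (-1.39) was lower. Against PD1d/IL-2v ACT, Id3 (-1.33) and Tcf7 (-1.23) were lower, and against PD1d/IL-33 ACT, Eomes (-1.22) and Maf (-1.175). From day 5 to day 12 of combination ACT 0 of 14 passed, and from day 12 to day 26 Tcf7 (1.14) and Eomes (1.075) were higher and Nr4a3 (-2.07) was lower. In untransduced ACT against non-treated tumors, Irf4 (1.21) was higher and Maf (-1.925) and Eomes (-1.89) were lower. Over all genes with at least 50 UMIs, 3.10% and 7.73% were past 2-fold against untransduced ACT at days 5 and 12. The share was 2.09% against PD1d/IL-2v ACT and 1.69% against PD1d/IL-33 ACT. It was 0.653% from day 5 to day 12, 3.16% from day 12 to day 26 and 2.02% for untransduced ACT against non-treated tumors.

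Cells with a UMI of Gzmc, a granzyme of highly activated CD8+ T cells, had little Tox in day-12 combination ACT. They made up 128 of its 363 Pdcd1+ cells, 35.3%, and their Tox level was 3.44 CPM (95% interval 1.38 to 7.08, from 7 UMIs), against 55.6 CPM in the 235 Pdcd1+ cells without Gzmc. Among Pdcd1- cells of that library the level was 5.19 CPM with Gzmc (95% interval 0.628 to 18.7, from 2 UMIs in 43 cells). Without Gzmc it was 22.6 CPM (16.8 to 29.7), so these intervals overlapped. The cells with Gzmc held more UMIs in all, with a median of 15682 against 8467 in Pdcd1+ cells. The part of UMIs per cell in the Tox level was not tested. Nfatc1 was 33.9 CPM with and 61.5 CPM without Gzmc in these Pdcd1+ cells, Nfatc2 20.1 and 26.9 CPM, and Nfatc3 52.0 and 70.0 CPM. Tox4 was 41.7 CPM with and 31.0 CPM without Gzmc. In Pdcd1+ cells the 95% intervals with and without Gzmc did not overlap for Tox and Nfatc1 and overlapped for Nfatc2, Nfatc3 and Tox4. The share of all genes whose intervals lay apart between these cells was not counted, so the 2 members have no background to be read against. In Pdcd1- cells Nfatc1 was 75.2 CPM with and 82.3 CPM without Gzmc, with overlapping intervals. None of these differences was tested.

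**Figure D5:**
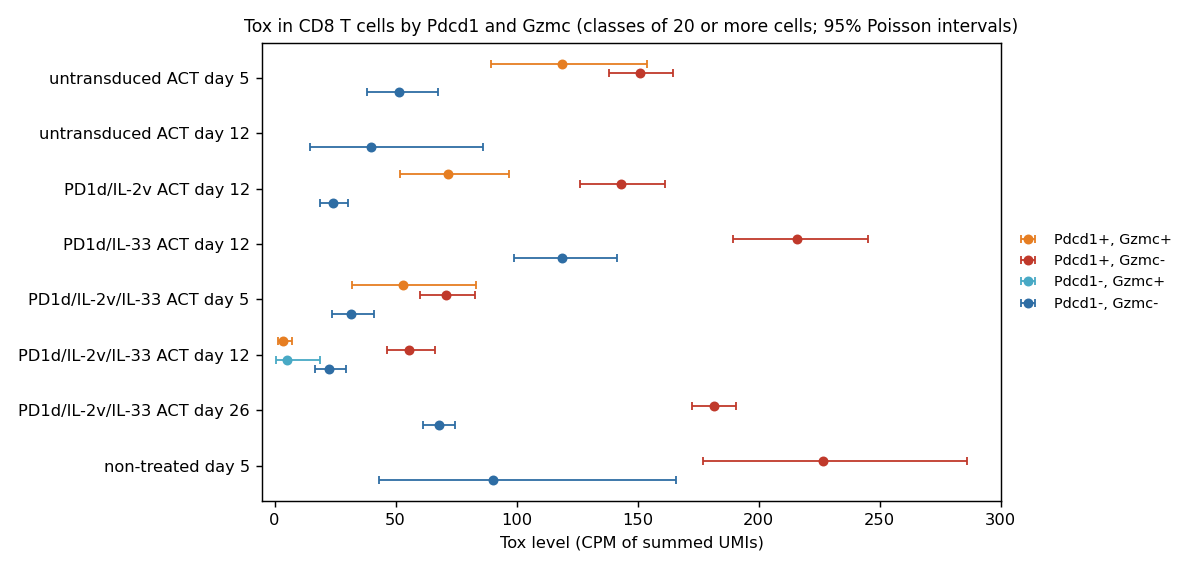
Tox level (CPM, with exact 95% Poisson intervals) in Pdcd1+ and Pdcd1- CD8 T cells with and without a Gzmc UMI, by library, for populations of at least 20 cells. The level of Pdcd1+ cells with Gzmc is 3.44 CPM in day-12 combination ACT and between 53.3 and 119 CPM in the 3 other libraries with enough such cells.

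Of the other libraries, 3 had at least 20 Pdcd1+ cells with Gzmc. Tox in Pdcd1+ cells was 119 CPM with and 151 without Gzmc in untransduced ACT at day 5, 71.8 and 143 CPM in PD1d/IL-2v ACT, and 53.3 and 70.9 CPM in day-5 combination ACT, from 30, 35 and 22 cells with Gzmc. The difference between libraries in this gap was not tested. Without Gzmc cells, CD8 T cells of day-12 combination ACT had 39.0 CPM of Tox, and the ratio to PD1d/IL-33 ACT was -1.86, to PD1d/IL-2v ACT -0.70, to day 5 -0.38 and of day 26 to day 12 1.54, so that against PD1d/IL-2v ACT it was no longer past 2-fold.

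Likeness of expression was read over 41 points, each a population of a library with at least 20 cells, as Pearson's r of log2(CPM + 10) among 10238 genes. The points share libraries and differ in depth, so r is a description. The genes most like Tox were Trim59 (0.899), Nt5c3b (0.897), Lime1 (0.890), Abhd8 (0.878) and Nipsnap1 (0.874). The genes most like Tox2 were Ptpn13 (0.810), Fam213a (0.787), 1500009L16Rik (0.783) and the type 2 cytokines Il13 (0.770) and Il5 (0.764). Tox2 was 61.2 CPM at 1 point, CD4 T cells without Foxp3 of day-5 combination ACT, and at most 21.4 CPM at the others. The weight of that point in r was not tested. The genes most like Nfatc1 were Plekha2 (0.876), Serpinb6b (0.865), Zcchc11 (0.856), Vps37b (0.854) and Tbx21 (0.854), the last of which encodes T-bet, a factor of NK and effector T cells. Among the members r was 0.734 between Nfatc1 and Nfatc3, 0.593 between Tox and Nfatc3, 0.560 between Tox and Nfatc1, 0.423 between Tox and Tox2, and 0.0486 between Tox and Tox4.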

How the data were processed

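The deposited matrix holds UMI counts per gene and barcode of 8 libraries (10x Genomics 5′), made by the authors with bcl2fastq and Cell Ranger (2.2.0 and GRCm38 per the submitters' processing notes) and aggregated without normalization. Whether reads were subsampled at aggregation is not given in the sources used here. Barcodes were assigned to libraries by suffix. The 5 run identifiers were read from the location that the deposited aggregation table gives for the counts of each library. Whether they mark sequencing runs is not given in the sources used here. The day-12 untransduced and combination libraries shared a run identifier, as did the PD1d/IL-2v and PD1d/IL-33 libraries, and the non-treated and day-26 libraries.

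Cells were kept with 500 to 6000 genes, 2000 to 40000 UMIs, 5% to 60% ribosomal UMIs (113 genes) and under 10% mitochondrial UMIs (13 genes), which left 12828 of 15700 barcodes. CD8 T cells had a UMI of Cd3d, Cd3e or Cd3g and of Cd8a or Cd8b1, none of Cd4, and fewer than 3 of 8 myeloid markers (among them Lyz2, Cd68, Csf1r, Cd14, C1qa, Adgre1 and Ms4a6c, the other being not reported here). CD4 T cells had Cd4 and neither Cd8 gene. NK cells had no Cd3d or Cd3e and at least 2 of Ncr1, Klrb1c, Klre1 and Klra8, and myeloid cells had no Cd3 gene and at least 3 myeloid markers. The study chose CD8+ cells with another tool, so its cell set differs from this one, and no doublet caller was run here.

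UMIs were summed per library and population. Populations were compared with edgeR 4.0.16 in R 4.3.3 (quasi-likelihood test, TMM, filterByExpr, library as a block), with p-values adjusted by Benjamini-Hochberg over all genes and a threshold of 0.05. With 1 library per condition, conditions have no test: CPM carry an exact Poisson interval (95%), ratios on the log2 scale are taken after adding 10 CPM and carry a counting interval, and genes with at least 50 UMIs in both libraries together were counted past 2-fold. Intervals, and limits for a count of 0 (3 counts), cover counting error only. Shares of cells are of cells thinned to 2000 UMIs, in populations set by all UMIs. For edgeR on thinned cells, the Pdcd1 and Foxp3 splits were made again from the thinned UMIs, so cells could change population. p-values between populations measure the spread between libraries of different conditions.

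The code was tested on simulated data. For the Pdcd1 comparison (8758 genes), 93.8% of 195 genes changed 2-fold were called, and 7.11% of calls were false. DESeq2 1.42.0 and the other settings tried are covered in the closing section. The members, the 7 gene lists and the tests were chosen with earlier results of these data known. All members are reported in every population, of each list the counts and up to 3 of its largest changes past the test or past 2-fold, and for Tox, Tox2 and Nfatc1 the 5 genes of highest r. Values of Gata3 and Il1rl1 come from a marker list read in every population, and the Gzmc split uses a gene known from earlier results. B-cell, neutrophil, plasmacytoid and dendritic-cell and melanoma marker lists were read too. In CD8 T cells of all libraries their summed levels were 6.47 CPM for B cells, 5.64 CPM for neutrophils, 153 CPM for plasmacytoid dendritic cells (of which Bst2 is not limited to them), 1.18 CPM for dendritic cells and 0.802 CPM for melanoma. RefSeq promoter windows were matched for 4 of the 6 members, and the first windows of Nfatc2 and Nfatc3 are shown.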

Additional observations from a re-analysis of the deposited data

Results flagged for a closer look

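In CD8 T cells the difference in Nfatc1 between Pdcd1+ and Pdcd1- cells had opposite signs in different libraries. It was 0.45 in PD1d/IL-33 ACT (counting interval 0.08 to 0.82, 107 against 75.6 CPM) and -0.65 in day-12 combination ACT (-0.89 to -0.41, 48.3 against 81.3 CPM). The interval was above 0 in 3 libraries and below 0 in 1, and the difference between libraries was not tested, since each condition is 1 library.

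Tox in CD4 T cells without Foxp3 was above that in CD8 T cells in some libraries and below it in others. The difference was 0.97 in PD1d/IL-2v ACT (142 against 67.6 CPM) and -1.91 in non-treated tumors (47.2 against 205 CPM, from 13 and 77 cells), with the interval above 0 in 2 libraries and below 0 in 3. Nfatc2 in NK cells against CD8 T cells was at 1.23 in non-treated tumors (34.4 against 8.93 CPM) and at -0.38 in day-12 combination ACT (19.2 against 27.9 CPM), with the interval above 0 in 1 library and below 0 in 2. Neither of these differences between libraries was tested.

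The 2480 passing cells that met the definition of no population also held RNA of all 6 genes, above the 0.1801 CPM that a count of 0 would allow. Their levels were 43.4 CPM of Tox, 6.00 CPM of Tox2, 51.5 CPM of Tox4, 77.8 CPM of Nfatc1, 24.4 CPM of Nfatc2 and 62.5 CPM of Nfatc3. What these cells are was not examined.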

How the results depend on the processing

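Each condition is 1 library, and 2 libraries gave only 42 and 77 CD8 T cells. The calls for Tox and for Nfatc1 between NK and CD8 T cells, and for Tox between the Pdcd1 populations, held in 17 of 17 alternatives, with Tox between 1.19 and 1.57 in the latter. Nfatc2 between the Pdcd1 populations held in 16 of 17, Nfatc3 in 11 of 17 (-0.35 to -0.03, also lost with the cell filter of the later experiment and without cycling cells), Nfatc1 and Nfatc3 between the Foxp3 populations in 15 and 11 of 16, and Nfatc2 and Nfatc3 between CD4 and CD8 T cells in 14 of 16 each. In myeloid cells Tox4 held in 12 of 16 and the 4 other members in all run. Leaving out 1 library at a time gave 1282 (without PD1d/IL-2v ACT) to 2026 genes called between the Pdcd1 populations, where 2017 were called with all 8. The 4 added alternatives (without the 2 smallest libraries, without cycling cells for the Pdcd1 and NK comparisons, without Gzmc cells, and without day-5 combination ACT for Tox2 in CD4 T cells) were chosen after seeing the data.

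With cells thinned to 2000 UMIs the genes called were 299 between the Pdcd1 and 342 between the Foxp3 populations, 789 between CD4 and CD8 T cells, 2027 between NK and CD8 T cells and 3383 between myeloid and CD8 T cells. Between the Pdcd1 populations the filter of the later experiment gave 600 and leaving out cycling cells 1007, and between the Foxp3 populations no count filter gave 1383 and a stricter gate 584. In the Foxp3 comparison the stricter gate left 5 libraries with enough cells, and thinning left 7. Tox between CD4 and CD8 T cells passed without a count filter (-0.42, adjusted p = 0.0222 with edgeR). Values that had not passed and lay near 0 changed sign as follows. Nfatc1 between the Pdcd1 populations ran from -0.011 to 0.19 over libraries left out and was -0.015 without the 2 smallest. Tox4 between the Foxp3 populations ran from -0.024 to 0.21 over libraries left out and was -0.11 with the stricter gate and -0.021 without the 2 smallest. Tox4 between CD4 and CD8 T cells ran from -0.040 to 0.094 over libraries left out and was -0.045 with no count filter, -0.050 thinned and -0.0071 with the later filter, and Nfatc1 there was -0.054 thinned. Tox4 between NK and CD8 T cells ran from -0.045 to 0.059 over libraries left out and was -0.022 with no count filter, -0.10 thinned, -0.071 with the later filter and -0.061 without cycling cells, and Nfatc3 there was -0.077 thinned.

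Tox kept its sign in 9 of 9 alternatives in each of the 7 comparisons of libraries. With the filter of the later experiment its log2 ratio was -0.79 at day 5 and, for day-12 combination ACT, -0.34 against PD1d/IL-2v ACT and -1.84 against PD1d/IL-33 ACT, and it was 1.38 for day 26 against day 12. In Pdcd1+ cells alone it was -2.01 against untransduced ACT, -1.74 against PD1d/IL-2v ACT and 2.23 for day 26 against day 12. With 1 CPM added it was -1.31 against PD1d/IL-2v ACT, -2.60 against PD1d/IL-33 ACT and 2.27 for day 26. Against PD1d/IL-2v ACT it was -0.79 thinned, -0.68 without cycling cells and -0.70 without Gzmc cells, so in 4 alternatives it was short of 2-fold there. Without cycling cells day 26 against day 12 was 1.70, and without Gzmc cells it was 1.54, with -1.86 against PD1d/IL-33 ACT and -0.38 against day 5. Genes past 2-fold with 1 CPM added were 871, 1566, 760, 461, 259, 1139 and 595 in the 7 comparisons as listed in the report, since low genes then pass more easily. In Pdcd1+ cells alone they were 1166 against untransduced ACT at day 12, 216 against PD1d/IL-33 ACT and 91 between days 5 and 12, without Gzmc cells 87 against PD1d/IL-33 ACT, and with the later filter 82 for untransduced against non-treated tumors. Tox had the lowest ratio against PD1d/IL-33 ACT in 8 of 9 alternatives, and in Pdcd1+ cells alone 1 gene was lower. No paired analysis of conditions was possible because each has 1 library, and the comparisons of populations pair them within a library by design.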
